A study of Homo sapiens with 6 samples.

Results

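The E2F and RB family genes described here are E2F1 to E2F8, RB1 and RBL1, chosen by gene name. All 10 were found among the 22152 rows of the table, and all 10 passed the filter on low values (a mean normalized count of at least 10 over the 6 libraries), which left 14782 tested genes. HaCaT cells, a spontaneously immortalized line of human keratinocytes (KCs), were transfected for 48 h with 1 nM of a negative control mimic (NC, 3 libraries) or 1 nM of a miR-21-3p mimic (3 libraries). A mimic is a synthetic RNA duplex that raises the level of a miRNA, and the comparison asks which KC transcripts change when miR-21-3p, the passenger strand of miR-21, is overexpressed. By the labels, polyA RNA was sequenced from stranded libraries. The replicates are described as biological, and p-values measure the spread between these 3 libraries of each group.

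E2F proteins bind promoters of genes needed for DNA replication and cell division, most of them as dimers with a DP protein. E2F1, E2F2 and E2F3 act mainly as activators, E2F4 and E2F5 act mainly as repressors together with pocket proteins of the RB family, E2F6 represses without a pocket protein, and the atypical E2F7 and E2F8 repress without a DP partner. In epidermis, pocket proteins hold back the cycling of KCs as these leave the basal layer, and G1 cyclin-dependent kinases release E2F from them by phosphorylation.

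The library depth recovered from the table ranged from 24400000 to 28000000 reads. Across genes, the log2 normalized counts of the NC libraries correlated at r = 0.9939 between replicates 1 and 2, 0.9954 between 1 and 3 and 0.9955 between 2 and 3, and those of the miR-21-3p libraries at 0.9949 to 0.9958. With the 3 miR-21-3p libraries, NC replicate 2 correlated at 0.9945 to 0.9952, NC replicate 1 at 0.9887 to 0.9919 and NC replicate 3 at 0.9909 to 0.994. Genes are not independent replicates, so these values are descriptive only.

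Among the 10 genes, E2F2 rose with the miR-21-3p mimic and the other 9 did not pass the test. That is 1 of 10 called higher, where 6.15% of all tested genes were called higher, and 0 of 10 called lower, where 4.67% were called lower (limma, adjusted p under 0.05). No member was called lower by edgeR, DESeq2 or limma-voom either. At an unadjusted p under 0.05, 5 members (E2F1, E2F2, E2F6, E2F8 and RBL1) were higher, against 15.3% of tested genes, and 0 were lower, against 13.2% (limma). All 3 miR-21-3p libraries lay above all 3 NC libraries for 3 of the 10 genes (E2F2, E2F3 and E2F6), against 16.5% of tested genes, and for 0 of the 10 they lay below, against 14.8%. The log2 fold change was positive for 9 of the 10, against 51.1% of tested genes, and its median was 0.20 over the 10 genes and 0.004 over all tested genes. The signs of all 10 fold changes were the same in edgeR, DESeq2 and limma-voom, with the other pseudocounts and with each library left out. Without NC replicate 2, 5 of the 10 were called higher, where 11% of all tested genes (1629 in place of 909) were, and without miR-21-3p replicate 2, 2 were, where 6.08% of all tested genes (899) were. Of all tested genes, 2.14% were called higher without NC replicate 1, 0.663% without NC replicate 3, 0.995% without miR-21-3p replicate 1 and 1.37% without miR-21-3p replicate 3. The shares called lower were 1.55%, 9.03% and 0.548% without NC replicates 1, 2 and 3. They were 0.893%, 4.34% and 1.12% without miR-21-3p replicates 1, 2 and 3. Counts with a library left out are to be read against these shares.

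**Figure D1:**
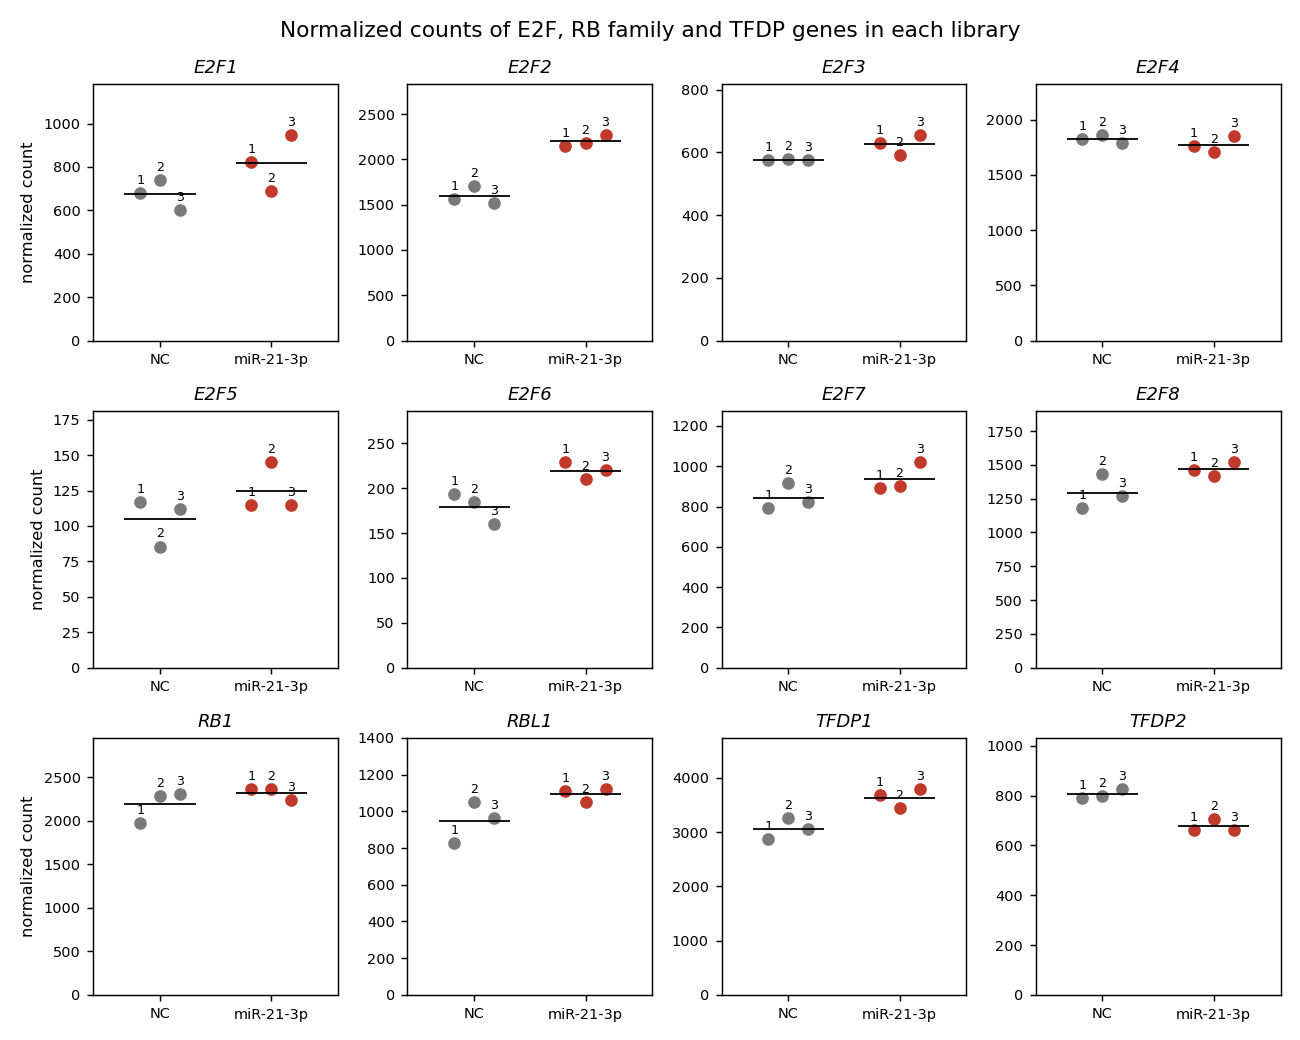
Normalized count (y axis, from 0) of the 10 E2F and RB family genes and of TFDP1 and TFDP2 in each library; grey points are the NC libraries, red points the miR-21-3p libraries, numbers are replicates and lines are group means. E2F2 lies between 1520 and 1710 in NC and between 2150 and 2270 with the miR-21-3p mimic, and TFDP2 is the gene shown whose miR-21-3p values all lie below NC.

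Among the activators, E2F2 had normalized counts of 1560, 1710 and 1520 in NC replicates 1, 2 and 3, and of 2150, 2180 and 2270 in miR-21-3p replicates 1, 2 and 3. The groups did not overlap, and the gap between the highest NC library and the lowest miR-21-3p library was wider than the range within either group. The means were 1597 ± 100 (SD, n = 3) in NC and 2200 ± 62.4 (SD, n = 3) with the mimic. E2F2 was 1.38-fold higher, a log2 fold change of 0.46 with a standard error of 0.055, a 95% confidence interval of 0.35 to 0.58 and an adjusted p of 0.00154 (limma). By adjusted p it ranked 9th of the 14782 tested genes, and 121 genes called higher had a larger log2 fold change. It passed the test with each of the 6 libraries left out in turn, with log2 fold changes of 0.43 to 0.51 and adjusted p of 4.75e-05 to 0.019 (limma). In limma without a trend of variance on expression, where 24 genes in all were called higher and 24 lower, its adjusted p was 0.0531. Of all genes named here as called, only WDR62 kept its call in that fit (adjusted p 0.0439). In bulk RNA, fewer cells of a type and less RNA per cell cannot be told apart, so a level here is an average over cells in all phases of the cycle.

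E2F1, which can also drive apoptosis genes, was more variable. Its normalized counts were 679, 741 and 601 in the NC libraries and 824, 687 and 947 in the miR-21-3p libraries. The groups overlapped, because miR-21-3p replicate 2 lay below NC replicate 2. The log2 fold change was 0.27 with a standard error of 0.106, and the adjusted p was 0.112 (limma). Without NC replicate 2 it was 0.35 with an adjusted p of 0.0288, and without miR-21-3p replicate 2 it was 0.40 with an adjusted p of 0.0274 (limma), so that the call turned on these libraries. E2F3 had normalized counts of 574, 579 and 576 in NC and of 631, 592 and 655 with the mimic. The groups did not overlap, but the difference was small, with a log2 fold change of 0.12, a 95% confidence interval of -0.02 to 0.26 and an adjusted p of 0.25 (limma). Reads of E2F3 could in principle fall on processed copies of the gene; of 7 annotated copies of E2F3, E2F4 and E2F6, 1 was in the table, and it held at most 3.09 normalized counts in any library. The summed normalized count of E2F1, E2F2 and E2F3 was 2813, 3030 and 2697 in NC and 3605, 3459 and 3872 with the miR-21-3p mimic. E2F2 was the largest part of this sum in every library. For E2F4 with E2F5 the groups overlapped (1937, 1946 and 1902 in NC, 1875, 1855 and 1965 with the mimic). They also overlapped for E2F7 with E2F8 (1973, 2348 and 2091, then 2353, 2323 and 2540). For RB1 with RBL1 they did not (2797, 3330 and 3272, then 3470, 3410 and 3360). The sums were not tested.

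Several of these genes carry E2F motifs in their own promoters, and the promoters are printed because members of the family are themselves E2F-bound genes. RefSeq windows of 300 bases, from 250 before to 50 after a start site (GRCh38.p14), were held for 8 of the 10 genes in 9 windows. The motifs searched on both strands were TTTCCCGC, TTTCGCGC, TTTGCCGC and TTTGGCGC, with GCGGGAAA, GCGCGAAA, GCGGCAAA and GCGCCAAA as their reverse complements. Of the 35116 promoter windows of this length, 1164 (3.31%) held at least 1 of them, and of the 13194 windows of tested genes 640 (4.85%) did. Among the family, 4 of 9 windows did (E2F1, E2F2, RBL1 and the upstream window of E2F3). Sequences are written 5′ to 3′ on the gene's strand, with motif matches in capitals.
E2F2 promoter, chr1:23531184-23531483, minus strand: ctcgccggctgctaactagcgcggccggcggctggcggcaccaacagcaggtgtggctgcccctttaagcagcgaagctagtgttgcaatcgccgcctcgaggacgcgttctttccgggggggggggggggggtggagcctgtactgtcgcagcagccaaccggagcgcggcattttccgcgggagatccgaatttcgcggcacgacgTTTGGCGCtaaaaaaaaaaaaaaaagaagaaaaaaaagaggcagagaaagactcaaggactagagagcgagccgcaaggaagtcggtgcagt
E2F1 promoter, chr20:33686336-33686635, minus strand: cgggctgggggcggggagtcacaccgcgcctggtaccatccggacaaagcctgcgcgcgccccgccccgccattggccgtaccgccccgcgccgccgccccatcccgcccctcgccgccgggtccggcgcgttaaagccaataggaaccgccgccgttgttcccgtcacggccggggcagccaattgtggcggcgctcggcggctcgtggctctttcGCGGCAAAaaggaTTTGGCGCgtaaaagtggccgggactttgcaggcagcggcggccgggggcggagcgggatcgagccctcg
RBL1 promoter, chr20:37095948-37096247, minus strand: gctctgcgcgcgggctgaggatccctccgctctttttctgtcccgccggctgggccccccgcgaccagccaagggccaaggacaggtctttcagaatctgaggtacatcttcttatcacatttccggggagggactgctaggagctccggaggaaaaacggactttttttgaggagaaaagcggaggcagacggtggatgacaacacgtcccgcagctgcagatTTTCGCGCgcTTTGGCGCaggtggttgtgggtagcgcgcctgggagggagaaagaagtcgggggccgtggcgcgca
TFDP1 promoter, chr13:113584503-113584802, plus strand: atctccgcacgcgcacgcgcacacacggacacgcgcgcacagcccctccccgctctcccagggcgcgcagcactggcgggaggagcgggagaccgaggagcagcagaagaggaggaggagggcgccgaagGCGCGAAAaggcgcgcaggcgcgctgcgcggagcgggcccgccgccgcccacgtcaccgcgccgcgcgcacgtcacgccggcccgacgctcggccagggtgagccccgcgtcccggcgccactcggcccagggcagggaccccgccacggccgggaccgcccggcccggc
The E2F2 window has 1 match, from 42 to 35 bases before the start site. E2F1 has a match on the opposite strand from 33 to 26 bases before it and another on the gene's strand from 20 to 13 bases before it. RBL1 has 2 matches on the gene's strand, from 26 to 19 and from 16 to 9 bases before its start, and TFDP1, the main DP gene, has 1 on the opposite strand from 120 to 113 bases before its start. The windows of E2F4, E2F6, E2F7, RB1 and TFDP2 hold none of these motifs. The RB1 window belongs to a start site 172724 bases downstream of the outermost annotated RB1 start, so it does not show the usual RB1 promoter. A match is a description of the letters, and binding was not measured.

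**Figure D2:**
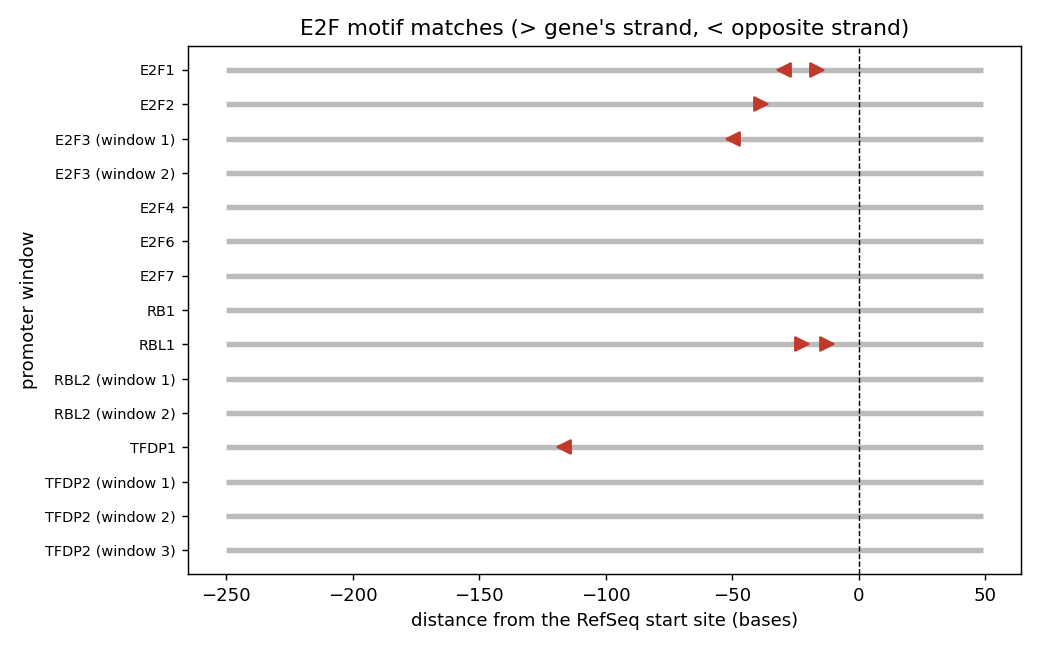
Position of E2F motif matches (x axis, bases from the RefSeq start site; triangles point right on the gene's strand and left on the opposite strand) in promoter windows of 300 bases (grey lines, y axis) of family members, RBL2, TFDP1 and TFDP2. The matches of E2F1, E2F2, E2F3 and RBL1 lie within 53 bases before the start site, and the TFDP1 match lies 120 to 113 bases before it.

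Among the repressors that work with pocket proteins, E2F4 did not pass the test. Its normalized counts were 1820, 1860 and 1790 in NC and 1760, 1710 and 1850 with the miR-21-3p mimic. The groups overlapped, and the log2 fold change of -0.04 had a 95% confidence interval of -0.15 to 0.07 and an adjusted p of 0.626 (limma). E2F4 was the member with a negative fold change. E2F5, the other repressor of this kind, had normalized counts of 117, 85.5 and 112 in NC and 115, 145 and 115 with the mimic. Its groups overlapped, its log2 fold change was 0.26 with a standard error of 0.15, and its adjusted p was 0.285 (limma). The log2 fold change of E2F5 without NC replicate 2 was 0.12 with an adjusted p of 0.615, and without miR-21-3p replicate 2 it was 0.15 with an adjusted p of 0.587 (limma). Within each library the ratio of E2F2 to E2F4 normalized counts was 0.857, 0.919 and 0.849 in NC and 1.22, 1.27 and 1.23 with the mimic. This ratio did not overlap between groups, nor did the ratios of E2F2 to E2F3 and to RB1, whereas the ratio of E2F2 to E2F1 overlapped (2.30, 2.31 and 2.53 in NC, 2.61, 3.17 and 2.40 with the mimic). The ratios themselves were not tested, and they are not corrected for length.

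E2F6, which represses as part of a polycomb complex, had normalized counts of 193, 185 and 160 in NC and 229, 210 and 220 with the mimic. The groups did not overlap. The log2 fold change was 0.29 with a standard error of 0.103, and the adjusted p of 0.0832 did not pass the threshold (limma). With each library left out in turn the adjusted p stayed between 0.0674 and 0.29 (limma).

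The atypical members E2F7 and E2F8, which repress E2F targets late in S phase, did not pass the test. E2F7 had normalized counts of 793, 918 and 821 in NC and 893, 903 and 1020 with the mimic, and E2F8 had 1180, 1430 and 1270 in NC and 1460, 1420 and 1520 with the mimic. In both genes NC replicate 2 was the highest NC library and overlapped the miR-21-3p group. The log2 fold changes were 0.15 for E2F7 and 0.19 for E2F8, with adjusted p of 0.186 and 0.0954 (limma). Without NC replicate 2 both passed, E2F7 with a log2 fold change of 0.22 and an adjusted p of 0.0466 and E2F8 with 0.26 and 0.00746 (limma). The ratio of E2F8 to E2F7 ranged from 1.49 to 1.56 in NC and from 1.49 to 1.63 with the mimic, and the groups overlapped.

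Of the pocket proteins, RB1, which binds the activator E2Fs, had normalized counts of 1970, 2280 and 2310 in NC and 2360, 2360 and 2240 with the miR-21-3p mimic. NC replicate 1 was the low library, the groups overlapped, and the log2 fold change of 0.09 had a 95% confidence interval of -0.04 to 0.22 and an adjusted p of 0.368 (limma). Without NC replicate 1 it was 0.02 with an adjusted p of 0.885 (limma). RBL1, which encodes p107 and is itself a known E2F target, had 827, 1050 and 962 in NC and 1110, 1050 and 1120 with the mimic. NC replicate 2 equalled miR-21-3p replicate 2. The log2 fold change of RBL1 was 0.21 with an adjusted p of 0.0947, and without NC replicate 2 it was 0.29 with an adjusted p of 0.0101 (limma). A further row that carries the name RBL1 held 1 to 4 reads per library and was not used. RBL2, which encodes the related pocket protein p130 of resting cells and is not among the 10 genes, had a log2 fold change of -0.10 and an adjusted p of 0.186 (limma).

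**Figure D3:**
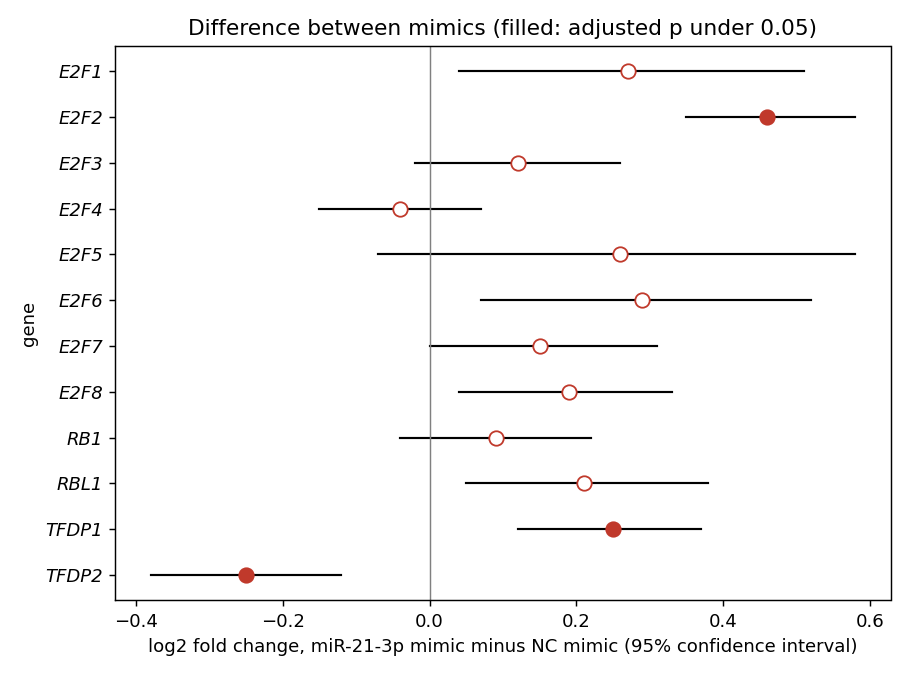
Log2 fold change, miR-21-3p mimic minus NC mimic (x axis), with its 95% confidence interval for the 10 family genes and the DP genes TFDP1 and TFDP2 (y axis); filled points passed an adjusted p of 0.05. E2F2 at 0.46 and TFDP1 at 0.25 are filled on the right, TFDP2 at -0.25 is filled on the left, and the intervals, which are not adjusted for the number of genes, include 0 for E2F3, E2F4, E2F5, E2F7 and RB1.

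Levels of different genes were compared as normalized counts per kilobase of annotated exon. Among the 10 genes, the highest level in NC was that of E2F4, at 509 ± 9.8 (SD, n = 3) normalized counts per kilobase. RB1 at 339 ± 29.2, E2F8 at 312 ± 30.6, E2F2 at 293 ± 18.4 and E2F1 at 269 ± 28.0 normalized counts per kilobase followed (SD, n = 3 each). Each of these 4 overlapped its neighbour in the order, so their order in NC is within the spread of the libraries. RBL1 at 159 and E2F7 at 134 normalized counts per kilobase overlapped too, while E2F3 at 112, E2F6 at 44.1 and E2F5 at 17.7 were separate from their neighbours. With the miR-21-3p mimic E2F2 had 403 normalized counts per kilobase, with a range of 394 to 416. This placed it above RB1 (347 to 366) and E2F8 (343 to 367) on the same scale, and it moved from rank 4 to rank 2 among the 10 genes. Outside the 10 genes, RBL2 and TFDP1 had higher NC means than E2F4, at 643 and 820 normalized counts per kilobase.

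**Figure D4:**
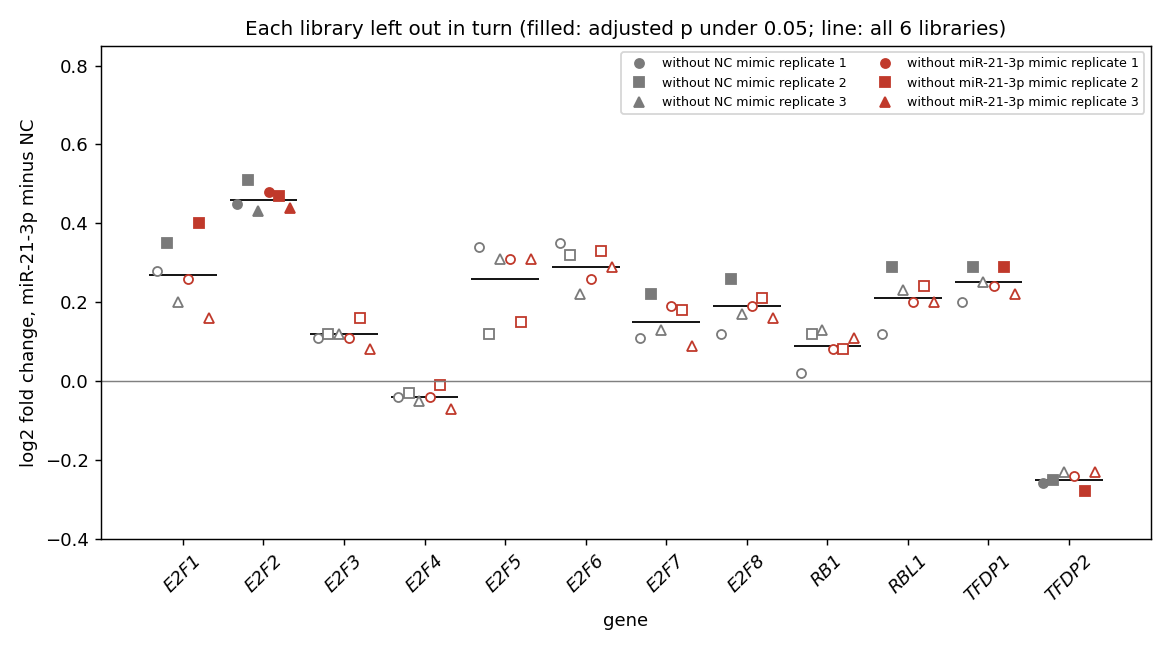
Log2 fold change, miR-21-3p minus NC (y axis), of the 10 family genes, TFDP1 and TFDP2 (x axis) with all 6 libraries (line) and with each library left out in turn (points; grey for an NC library, red for a miR-21-3p library; filled where the adjusted p was under 0.05). E2F2 is filled in all 6 cases, and E2F1, E2F7, E2F8 and RBL1 are filled without NC replicate 2.

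The genes whose log2 normalized counts followed E2F2 most closely over the 6 libraries, by Pearson correlation, were WDR62 (0.9978), S100A16 (0.9968), TPI1 (0.9955), GPBP1 (0.9943) and EXOC2 (0.9942). These values come from 3 libraries in each of the groups that already differ in E2F2, and 369 tested genes had a correlation above 0.95. WDR62, which encodes a spindle pole protein, had normalized counts of 184, 200 and 176 in NC and 275, 272 and 295 with the mimic. Like E2F2 it was highest within NC in replicate 2 and highest of all in miR-21-3p replicate 3. WDR62, S100A16 and TPI1 passed the test, with log2 fold changes of 0.59, 0.22 and 0.40, whereas GPBP1 and EXOC2 had 0.11 and 0.10 and did not. WDR62 and TPI1 passed with each library left out in turn, and S100A16 lost its call without NC replicate 3, miR-21-3p replicate 1 or miR-21-3p replicate 3 (adjusted p up to 0.0791, limma).

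The DP partners of the E2Fs moved in opposite directions. TFDP1 had normalized counts of 2870, 3270 and 3060 in NC and 3680, 3440 and 3790 with the miR-21-3p mimic. TFDP2 had 790, 799 and 825 in NC and 663, 705 and 662 with the mimic. Neither gene overlapped between groups. TFDP1 rose by a log2 fold change of 0.25 with an adjusted p of 0.0192, and TFDP2 had a log2 fold change of -0.25 with an adjusted p of 0.0218 (limma). Per library the ratio of TFDP1 to TFDP2 normalized counts was 3.63, 4.09 and 3.71 in NC and 5.55, 4.88 and 5.73 with the mimic. Because the groups of both genes are apart in opposite directions, this ratio could not overlap and adds no further evidence. With a library left out, the log2 fold change stayed between 0.20 and 0.29 for TFDP1 and between -0.28 and -0.23 for TFDP2 (limma). Both calls were lost in some of these fits, in which 0.663% to 2.14% of all tested genes were called higher, against 6.15% with all 6 libraries. TFDP1 lost its call without NC replicate 1 (adjusted p 0.0668), NC replicate 3 (0.0847), miR-21-3p replicate 1 (0.0891) or miR-21-3p replicate 3 (0.0831), and TFDP2 without NC replicate 3 (0.109), miR-21-3p replicate 1 (0.102) or miR-21-3p replicate 3 (0.0836), all by limma. In limma without a trend neither passed (adjusted p 0.112 for TFDP1 and 0.0849 for TFDP2).

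Partners of the DREAM and MuvB complexes, which hold E2F4, RBL1 or RBL2 in resting cells and MYBL2 or FOXM1 in cycling cells, gave 3 genes higher and 1 lower of 9 tested in a list that also holds the DP genes and shares MYBL2 with the G1/S list and RBBP4 with the corepressor list below, where 6.15% of all tested genes were higher and 4.67% lower (limma). Its median log2 fold change was 0.16, against 0.004 over all tested genes. MYBL2, an E2F target that switches MuvB to activation, had normalized counts of 889, 1110 and 966 in NC and 1310, 1220 and 1490 with the mimic. The groups did not overlap, and MYBL2 rose by a log2 fold change of 0.44 with an adjusted p of 0.0114 (limma). FOXM1, the activator of mitotic genes, rose by 0.20 with an adjusted p of 0.0222 (limma). MYBL2 lost its call without NC replicate 3, miR-21-3p replicate 1 or miR-21-3p replicate 3, and FOXM1 without any of these or NC replicate 1 (adjusted p up to 0.063 and 0.117, limma). RBBP4, a histone chaperone and the gene with the highest mean count among those of the list that did not pass, had a log2 fold change of 0.13 and an adjusted p of 0.227, which was 0.031 without NC replicate 2 (limma). LIN37 was listed at 0 in all libraries. The 3 higher calls became 4 without NC replicate 2, and they fell to 1 without NC replicate 1 and to 0 without NC replicate 3, miR-21-3p replicate 1 or miR-21-3p replicate 3, and the lower call to 0 without any of the last 3.

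The lists around the family are not separate, as 5 genes stand in more than 1 of them (RBBP4, MYBL2, CCNE1, CCNE2 and CDC25A). Upstream of RB, 3 of 17 tested G1 cyclins, kinases and inhibitors were higher and 1 was lower (limma), where 6.15% of all tested genes were higher and 4.67% lower. At an unadjusted p under 0.05, 10 were higher and 3 were lower, against 15.3% and 13.2% of all tested genes (limma). The median log2 fold change of this list, which holds cyclins and kinases together with their inhibitors, was 0.15, against 0.004 over all tested genes. With edgeR, DESeq2 and limma-voom 3 to 4 were higher and 2 were lower, and in limma without a filter on low values 0 were lower. CCNE2, the E-type cyclin that drives entry into S phase, had normalized counts of 463, 524 and 551 in NC and 654, 648 and 614 with the mimic. It rose by a log2 fold change of 0.32 with an adjusted p of 0.0218, and its kinase partner CDK2 rose by 0.22 with an adjusted p of 0.021 (limma). The D-type cyclin CCND3 rose by 0.25 (adjusted p 0.0318), and CDK6, 1 of the D-cyclin kinases, fell by 0.15 on the log2 scale (adjusted p 0.045, limma). CDK6 had normalized counts of 5220, 5250 and 5340 in NC and 4790, 4890 and 4590 with the mimic. CDK4, the other D-cyclin kinase, had 2620, 2920 and 2520 in NC and 3020, 3000 and 3150 with the mimic. Its groups did not overlap, and its log2 fold change of 0.19 had an adjusted p of 0.0507, which did not pass (limma). CCND1, the gene with the highest mean count among those of this list that did not pass, had a log2 fold change of 0.11 and an adjusted p of 0.107 (limma). Its normalized counts were 17200, 17800 and 17500 in NC and 18800, 18900 and 19000 with the mimic, and the groups did not overlap. Higher calls ranged from 0 to 6 with a library left out: 1 without NC replicate 1, 6 without NC replicate 2, and 0 without NC replicate 3, miR-21-3p replicate 1 or miR-21-3p replicate 3. CCNE2, CDK2, CCND3 and CDK6 each lost their call without NC replicate 1, NC replicate 3, miR-21-3p replicate 1 or miR-21-3p replicate 3 (adjusted p up to 0.1, 0.107, 0.138 and 0.172, limma). Without NC replicate 2 there were 3 lower calls, where 9.03% of all tested genes were lower. Without miR-21-3p replicate 2 there were 2, where 4.34% were lower.

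The classical G1/S targets of E2F gave 18 of 36 tested genes higher and 0 lower, with a median log2 fold change of 0.30. Over all tested genes 6.15% were higher and 4.67% lower, and the median was 0.004. At an unadjusted p under 0.05, 30 were higher and 0 were lower, against 15.3% and 13.2% of all tested genes. No gene of this list was lower by edgeR, DESeq2 or limma-voom, and these tools called 14 (edgeR scaled by library totals only) to 21 (DESeq2) of them higher. RRM2, the regulated subunit of ribonucleotide reductase, had normalized counts of 1340, 1980 and 1550 in NC and 2650, 2620 and 3060 with the mimic. Its groups did not overlap, and it rose 1.73-fold, a log2 fold change of 0.79 with a standard error of 0.110 and an adjusted p of 0.00327 (limma). The replication helicase subunit MCM6 rose by 0.58 on the log2 scale, the replication initiation factor MCM10 by 0.53 and the checkpoint mediator CLSPN by 0.44 (adjusted p 0.0112, 0.0131 and 0.0222, limma). BRCA1, the gene with the highest mean count among those of the list that did not pass, had a log2 fold change of 0.19 and an adjusted p of 0.0799, or 0.00263 without NC replicate 2 (limma). The list as a whole had summed normalized counts of 56970, 69980 and 59880 in NC and 74610, 71710 and 80490 with the mimic. NC replicate 2 was the highest NC library of this sum, and it lay below all 3 miR-21-3p libraries. Without NC replicate 2, 31 of the 36 were called higher, where 11% of all tested genes were. The count was 6 without NC replicate 1 (2.14% of all tested genes), 2 without NC replicate 3 (0.663%) and 3 without miR-21-3p replicate 1 (0.995%) or miR-21-3p replicate 3 (1.37%). The median of the list stayed between 0.22 and 0.39 whichever library was left out. RRM2 was called in all 6 cases, whereas MCM10 and CLSPN lost their calls without NC replicate 1, and they and MCM6 lost theirs without NC replicate 3, miR-21-3p replicate 1 or miR-21-3p replicate 3 (highest adjusted p 0.0641 for MCM6, 0.0717 for MCM10 and 0.105 for CLSPN, limma). E2F motifs were in 19 of the 48 promoter windows of this list (39.6%), against 4.85% of windows of tested genes. By gene, they were in 18 of its 31 genes with windows, against 601 of the 9001 tested genes with windows. The list was chosen as known E2F targets, so this share is no independent evidence.

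Among G2/M genes bound by MuvB with MYBL2 or FOXM1, 18 of 20 were higher and 0 were lower, and all 20 had a positive log2 fold change, with a median of 0.35. The shares over all tested genes were 6.15% higher, 4.67% lower and 51.1% positive, and the median was 0.004. CCNB1, the mitotic cyclin, had normalized counts of 3050, 3730 and 3310 in NC and 4460, 4190 and 5020 with the mimic. CDK1, its kinase, had 3580, 4490 and 4110 in NC and 5310, 5500 and 5410 with the mimic. In both genes every miR-21-3p library lay above every NC library, as in 17 of the 20, against 16.5% of tested genes. CCNB1 rose by a log2 fold change of 0.44 (adjusted p 0.00762) and CDK1 by 0.42 (adjusted p 0.00538, limma). The chromosomal passenger BIRC5 rose by 0.40 and the spindle checkpoint kinase BUB1 by 0.39 (adjusted p 0.00538 and 0.0104, limma). TTK, another spindle checkpoint kinase and the gene with the highest mean count among those of the list that did not pass, had 0.19 and an adjusted p of 0.112, or 0.0043 without NC replicate 2 (limma). E2F motifs were in 2 of 21 promoter windows of this list (9.52%), against 4.85% of windows of tested genes. Both windows belong to 1 of its 16 genes with windows, against 601 of the 9001 tested genes with windows. Higher calls numbered 20 without NC replicate 2 (11% of all tested genes), 11 without NC replicate 1 (2.14%), 3 without NC replicate 3 (0.663%) and 8 without miR-21-3p replicate 1 (0.995%) or miR-21-3p replicate 3 (1.37%), and the median stayed between 0.29 and 0.43. CCNB1, CDK1 and BIRC5 were called in all 6 cases, and BUB1 lost its call without NC replicate 3 (adjusted p 0.0547, limma).

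**Figure D5:**
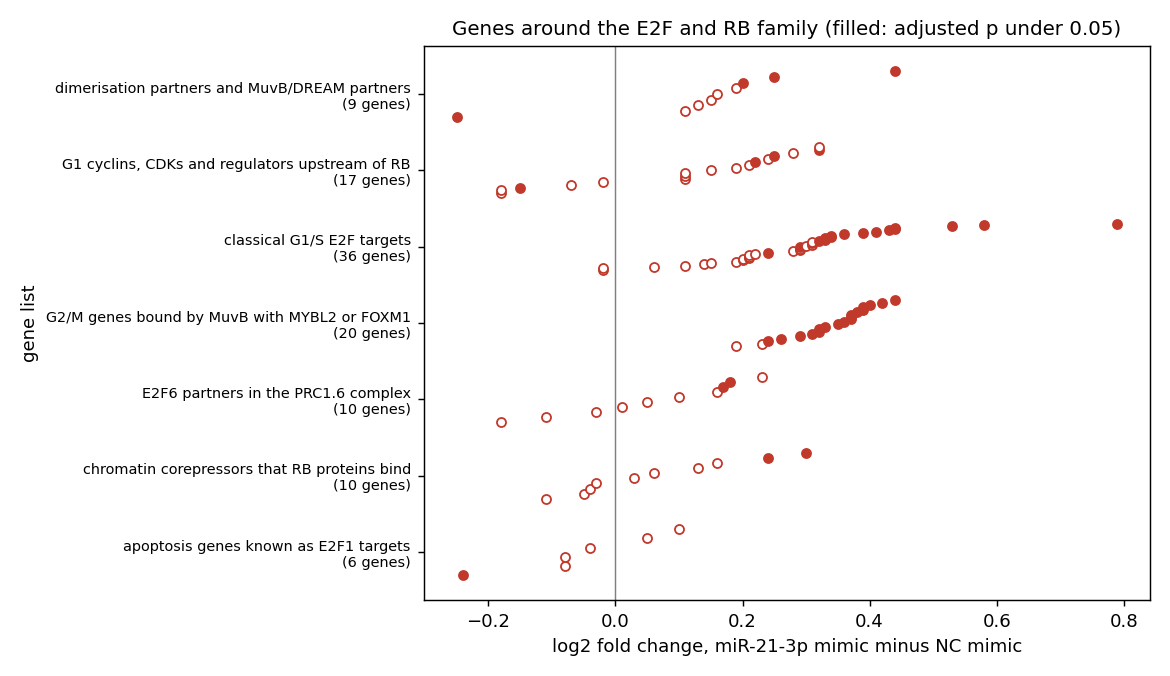
Log2 fold change, miR-21-3p mimic minus NC mimic (x axis), of each tested gene in 7 lists around the family (y axis); filled points passed an adjusted p of 0.05. In the G2/M list all 20 points lie right of 0 and 18 are filled, in the G1/S list 18 of 36 are filled, and in the apoptosis list the filled point, BCL2L11, lies left of 0.

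In the other lists few genes passed the test. Their counts stand against 6.15% higher and 4.67% lower of all tested genes by adjusted p, 15.3% and 13.2% at an unadjusted p under 0.05, and a median log2 fold change of 0.004 (limma). Of 10 partners of E2F6 in the PRC1.6 complex, 2 were higher and 0 were lower, with a median log2 fold change of 0.07 (limma). At an unadjusted p under 0.05, 4 were higher and 2 were lower, and edgeR, DESeq2 and limma-voom also called 0 lower. DESeq2 called 1 higher, and edgeR and limma-voom called 2. CBX3, a heterochromatin reader, rose by 0.18, and WDR5, a histone methylation cofactor, rose by 0.17 (adjusted p 0.0388 and 0.0422, limma); WDR5 had an adjusted p of 0.0557 in DESeq2. MAX, the bHLH partner of MGA, had -0.11 and did not pass. Both higher calls were lost without NC replicate 1, NC replicate 3, miR-21-3p replicate 1 or miR-21-3p replicate 3 (adjusted p up to 0.143 for CBX3 and 0.155 for WDR5, limma), CBX3 alone was lost without miR-21-3p replicate 2, and without NC replicate 2 there were 3 higher calls. Of 5 germline genes repressed through E2F6, looked up by name and by gene identifier, 0 were found among the rows used, so their expression was not analysed here. Of 10 chromatin corepressors that bind RB proteins, 2 were higher and 0 were lower, with a median of 0.04, against the same shares; at an unadjusted p under 0.05, 2 were higher and 0 were lower, and the other tools called 0 lower. The maintenance methyltransferase DNMT1 rose by 0.30 and the histone chaperone RBBP7 by 0.24 (adjusted p 0.0311 and 0.0245, limma), while the deacetylase HDAC1 had 0.03. The 2 calls became 4 without NC replicate 2, 1 without miR-21-3p replicate 2 and 0 with any of the other 4 libraries left out (adjusted p up to 0.134 for DNMT1 and 0.103 for RBBP7, limma).

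Of 6 apoptosis genes known as E2F1 targets, 0 were higher and 1 was lower, with a median log2 fold change of -0.06. Of all tested genes 6.15% were higher and 4.67% lower, with a median of 0.004, and 15.3% were higher at an unadjusted p under 0.05 (limma). The median of the list was 0.01 without NC replicate 1, 0.00 without miR-21-3p replicate 3 and -0.10 without NC replicate 2 or miR-21-3p replicate 2, so its sign turned on single libraries. At an unadjusted p under 0.05, 0 were higher and 1 was lower, where 13.2% of all tested genes were lower (limma). By edgeR, DESeq2 and limma-voom, 0 were higher and 1 was lower. The pro-apoptotic BCL2L11 had normalized counts of 1890, 1730 and 1930 in NC and 1530, 1630 and 1530 with the miR-21-3p mimic. All 3 miR-21-3p libraries lay below the NC libraries. The log2 fold change was -0.24 with a standard error of 0.055 and an adjusted p of 0.0193 (limma). BCL2L11 lost its call without NC replicate 1, NC replicate 3, miR-21-3p replicate 1 or miR-21-3p replicate 3 (adjusted p up to 0.105, limma). APAF1, the apoptosome scaffold, had -0.08 and did not pass.

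Markers were read to check the cell type, as far as they were found among the rows used. All 8 KC markers were abundant, with summed normalized counts of 290100, 268000 and 286800 in NC and 281700, 294100 and 266700 with the mimic. KRT5, the basal keratin with the highest counts among them, had 123000 to 139000 normalized counts over the 6 libraries. KRT6A, the keratin of activated KCs, rose by a log2 fold change of 0.34, with an adjusted p of 0.00203 (0.0559 in limma without a trend), and ITGB4, the hemidesmosomal integrin, fell by 0.26 on the log2 scale, with an adjusted p of 0.0381 (limma). ITGB4 lost its call without NC replicate 1, NC replicate 3, miR-21-3p replicate 1 or miR-21-3p replicate 3 (adjusted p up to 0.145, limma). Without NC replicate 2, 3 of the 8 KC markers were called lower (ITGB4, LAMB3 and TP63), where 9.03% of all tested genes were. Of other cell types, COL1A1 (364 to 560 normalized counts), PMEL (120 to 155), CD14 (58.7 to 92.2) and VWF (712 to 801) were not called by limma. A look-up by name and by gene identifier found 1 of 6 fibroblast, 1 of 4 melanocyte, 1 of 4 leukocyte and 2 of 3 endothelial markers, and the others were not analysed here. COL1A1 had a log2 fold change of -0.34 by limma and was called lower by DESeq2 on all 6 libraries, with -0.36 and an adjusted p of 0.0277. In limma it was called lower without NC replicate 2, with -0.48 and an adjusted p of 0.00179. CDH5, the endothelial cadherin, had 477, 286 and 393 normalized counts in NC and 165, 178 and 122 with the mimic. The groups did not overlap, and the log2 fold change was -1.30 with an adjusted p of 0.00258 (limma; 0.0711 without a trend). The part of these genes in the results on the E2F and RB family was not tested.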

How the data were processed

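HaCaT RNA from 6 libraries, 3 per mimic, was sequenced on a NextSeq instrument. The labels give polyA RNA and a stranded mRNA kit, whereas the published methods speak of small RNA libraries; the labels were followed. Per the labels, the authors used bcl2fastq 2.18.12, cutadapt 1.15, TopHat2 2.1.1, featureCounts of Subread 1.5.2 and DESeq2; the genome build and annotation are not given in the sources used here. The deposited values are a signal per gene, read counts divided by size factors and rounded by the authors to 3 significant digits. Dividing each column by its step per read gave whole reads, within 0.1 read, for 100% of values under 100, and 24400000 to 28000000 reads per library. Depth sets the counting error of the low genes, such as E2F5. A count test had been planned for raw counts; because the table holds normalized counts, limma 3.58.1 with a trend was run on log2(normalized count + 1) for genes with a mean of at least 10, with Benjamini-Hochberg adjustment over all 14782 tested genes and a threshold of 0.05. Fold changes are on this scale, which understates changes of low genes. The fit was tested on simulated data. Of rows sharing a name, the row with the higher mean was used. The members and lists were chosen with earlier results of these data known. A gene of the apoptosis list is not reported here, and the counts and median of that list leave it out. Genes named beyond the 10 members and the DP genes TFDP1 and TFDP2 are, per list, up to 4 called genes with the largest fold change, the gene not called with the highest mean count, the markers found, and the 5 genes most correlated with E2F2. The markers KRT14, DSG3 and DSC3 enter only as part of the 8 KC markers. LIN37, RBL2, CDK4 and the copies of family genes were added after their values were seen. Exon lengths are unions of GENCODE 29 exons matched by gene identifier, which may differ from the annotation counted. Alternatives were edgeR 4.0.16, DESeq2 1.42.0 and limma-voom on the recovered reads, other scaling, filters and pseudocounts, a replicate block and each library left out. R 4.3.3 and Python 3.11.15 were used.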

Additional observations from a re-analysis of the deposited data

How the results depend on the processing

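Of the 16 alternatives, 12 were planned, and edgeR with TMM factors, pseudocounts of 0.5 and 10 and limma without a trend were chosen after seeing the data. No fold change of a family member changed sign. Against 909 genes higher and 691 lower, edgeR on recovered reads called 876 and 777 with RLE factors, 880 and 764 with TMM factors, and DESeq2 called 875 and 715. The median log2 fold change of all genes stayed between -0.002 and 0.009. In limma without a trend, 24 genes were higher and 24 lower, 0 members and 0 genes of any of the 7 lists were called higher or lower, and E2F2, whose log2 fold change of 0.46 this setting cannot move, had an adjusted p of 0.0531, where its range over all alternatives was 3.04e-09 to 0.0531; the cause was not tested.

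With a library left out, fewer samples enter the fit. Genes called higher ranged from 98 (without NC replicate 3) to 1629 (without NC replicate 2), and genes called lower from 81 to 1334, for the same libraries. Members called higher ranged from 1 to 5, G1/S targets from 2 to 31 and G2/M genes from 3 to 20. Log2 fold changes ranged from 0.16 to 0.40 for E2F1, from 0.09 to 0.22 for E2F7, from 0.12 to 0.26 for E2F8 and from 0.12 to 0.29 for RBL1; these 4 passed the threshold without NC replicate 2, and E2F1 also without miR-21-3p replicate 2. E2F3 (0.08 to 0.16), E2F4 (-0.07 to -0.01), E2F5 (0.12 to 0.34), E2F6 and RB1 (0.02 to 0.13) passed under no alternative.

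The replicate numbers are shared by both groups. Across genes, deviations of equal numbers from their group means correlated at -0.01, -0.20 and -0.17. With 3 libraries per group, these values cannot tell whether the libraries were paired. With the replicate number as a block, 685 genes were higher and 517 lower, and E2F2 was still called; of the lists, 16 G1/S targets, 18 G2/M genes, 2 G1 regulators, 2 DREAM and MuvB partners and 0 PRC1.6 partners were higher, and 0 G1 regulators were lower.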
